A study of Homo sapiens with 8 samples.

Results

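The respiratory chain subunits that are encoded in the nucleus were described in a human hepatic cell line, in a gene-edited derivative of it, and in that derivative after bioprinting. The members were the protein-coding genes of the deposited table whose symbols name a subunit of complexes I to V (the NDUF, SDH, UQCR, CYC1, COX and ATP5 gene families), which gave 92 of 58735 genes and of 19951 protein-coding genes. Symbols alone chose them and set their complex. By symbol 40 were counted in complex I, 4 in complex II, 10 in complex III, 17 in complex IV and 21 in complex V. Read-through and retrocopy genes are included. NDUFA4 and its paralogue NDUFA4L2 were counted in complex I by their symbols, although NDUFA4 is now assigned to complex IV. HepaRG is a bipotent hepatic progenitor line. The 3 libraries called HepaRG plate were wild-type cells grown in culture flasks. The 3 libraries called M14A plate were gene-edited HepaRG cells, labelled as FoxM1/HNF4A transfected and also grown in flasks. For the 2 libraries called M14A printed, M14A cells of that genotype were detached, mixed with a bioink named GP and printed, and RNA was taken 4 h afterwards. Flask cells were detached and pelleted, while printed material was snap-frozen and ground up, so printing and the way of collection cannot be told apart. Whether M14A is 1 clone, and whether the replicates were separate cultures, is not stated, so p-values measure the spread between these libraries, which may be technical.

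The respiratory chain passes electrons from NADH (complex I) and succinate (complex II) through ubiquinone to complex III, on through cytochrome c to complex IV, and there to oxygen. Complexes I, III and IV pump protons across the inner mitochondrial membrane, and complex V, the ATP synthase, lets them return and makes ATP. Most subunits are nuclear genes whose proteins are imported, and a small core is encoded in mitochondrial DNA. Around the subunits that carry the redox centres or the catalytic sites, the nuclear genome supplies many small accessory subunits. Liver cells use the chain heavily, since urea synthesis, gluconeogenesis and fat oxidation depend on mitochondrial ATP.

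The unit of the deposited values is FPKM, which divides a gene's fragments by its length and by a library scale. From 15632154 to 19148262 reads per library could be recovered from the values. HNF4A read 5.67 to 6.50 FPKM in the HepaRG libraries, 37.9 to 43.1 in flask-grown M14A and 13.6 and 17.1 after printing, and FOXM1 read 12.9 to 14.9, 8.92 to 13.0 and 10.1 in both. The label of hepatic cells was set against markers, as FPKM sums. The totals of all FPKM were 272290 to 350931 in M14A plate and 514152 and 499995 in M14A printed, so these sums are not shares. The 8 hepatocyte markers summed to 26.7 to 28.9 FPKM in wild-type cells, 499 to 607 in flask-grown M14A and 767 and 788 in printed cells, with TTR and TF at most 0.325 FPKM in any library. SERPINA1, at 459, 281 and 262 FPKM in M14A plate and 480.0 and 438 in M14A printed, gave more than the rest of the list in every M14A library, and the list did not move as one: in the edited line SERPINA1, FGB, ALB, APOB and APOA1 rose and CPS1 fell (log2 fold change -0.80). APOA1 reached 1 FPKM in M14A libraries alone, so it had to differ in the edited line, and its rise there is a description. In printed cells FGB, ALB and APOA1 rose, and APOB differed by -0.93 with no call. With FPKM totals set equal outside mitochondrial genes ALB and APOA1 were still called and FGB was not, and the list's median was 0.05. Biliary markers summed to 98.4 to 102 FPKM, 26.0 to 61.1, and 46.4 and 49.96. SPP1 and SOX9 fell in the edited line and EPCAM had no reads in M14A, while KRT7 rose in both comparisons, with means of 0.463, 2.03 and 5.74 FPKM. KRT7 also reached 1 FPKM in M14A libraries alone, so its rise in the edited line is a description. Of the leukocyte markers, PTPRC, CD3E and CD68 reached at most 0.152 FPKM in any library, while LAPTM5 and CD14 brought the list's sum in M14A printed to 9.94 and 11.8 FPKM, with at most 10.6 in M14A plate and 2.89 in HepaRG plate. Stellate and fibroblast markers (7 genes) summed to 13.4 to 13.7 FPKM in wild-type cells, 69.8 to 85.1 in flask-grown M14A and 102 and 107 in printed cells. In the edited line 3 of them rose (DCN, PDPN and ACTA2) and 2 fell (COL1A1 and PDGFRB, of which PDGFRB reached 1 FPKM in wild-type cells alone). DCN rose again in printed cells, but was not called there with totals set equal outside mitochondrial genes. The collagens COL3A1 and COL1A2 were at most 0.379 FPKM in every library. Endothelial markers summed to at most 2.18 FPKM in any library, with CDH5 at 0 reads. The part of these shifts in the results below was not tested.

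M14A plate library 1 stood apart from its group. Its log2 values correlated with those of libraries 2 and 3 at 0.957 and 0.948 over the genes tested, against 0.988 between libraries 2 and 3. Among the members tested, library 1 was the highest of its group for 72 of 83 and the lowest for 8, with a median of 1.45 times the mean of the other 2 libraries. Over all 14349 genes tested it was the highest for 52.1%, with a median of 1.12 times. The members therefore varied far more within M14A plate (median coefficient of variation 23.4%) than within HepaRG plate (5.59%). Results that rest on this library are given with and without it.

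As a whole, the 92 genes summed to 4195, 4057 and 4375 FPKM in HepaRG plate, 6550.3, 4447 and 4336 in M14A plate and 11080.0 and 9564 in M14A printed. Both printed libraries lay above every flask library, and M14A plate libraries 2 and 3 lay close to HepaRG plate, with library 1 above them. On the FPKM scale the printed mean was 2.02 times the M14A plate mean, and 2.35 times without M14A plate library 1. The totals of all FPKM differed between libraries, from 254141 to 514152, so shares are given as well. The members took 1.63, 1.596 and 1.64% of the FPKM total in HepaRG plate, 1.87, 1.598 and 1.59% in M14A plate and 2.15 and 1.91% in M14A printed, where the printed mean was 1.21 times that of M14A plate, or 1.28 times without library 1. Counted as reads outside mitochondrial genes, the shares were 1.21, 1.17 and 1.23%, 1.58, 1.25 and 1.27%, and 2.14 and 2.03%, and printed cells were higher by 1.52 times, or 1.66 times without M14A plate library 1. As a share of all reads the ratio was 1.43, or 1.54 without that library. In bulk samples, fewer cells of a type and less RNA per cell cannot be told apart.

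**Figure D1:**
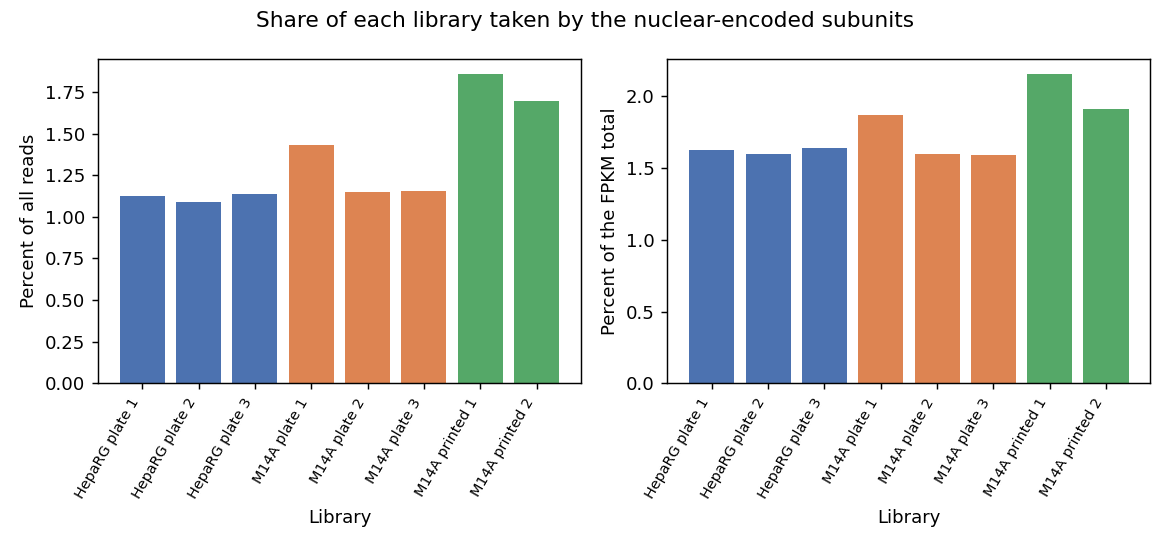
Share of each of the 8 libraries taken by the 92 nuclear-encoded subunits, as percent of all reads (left) and percent of the FPKM total (right), with a bar for each library coloured by group. Both printed bars, at 1.86 and 1.69% of reads, are higher than every flask bar, and M14A plate library 1, at 1.43%, is the highest flask bar.

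Of the 92 members, 83 passed the filter of at least 1 FPKM in at least 2 libraries and were tested. The other 9 were the core complex I subunit NDUFV2 (176 reads in all 8 libraries), the accessory subunit NDUFA7 (57 reads), the tissue isoforms COX4I2 (3 reads), COX6B2 (4 reads), COX7A1 (44 reads) and COX8C (no reads), the read-through genes NDUFC2-KCTD14 (no reads) and ATP5MF-PTCD1 (12 reads), and the retrocopy ATP5MGL (2 reads). NDUFV2 is an essential subunit, and 28.4% of its exon bases are shared with another gene. NDUFA7 shares 33.5% of its exon bases, with RPS28 among the partners, so their counts are uncertain. Reads in shared bases can be lost in gene counting, and 46 members also have named pseudogenes, 160 in all.

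The comparison of printed with flask-grown M14A asks what the printed cells express 4 h after printing. On the deposited scale members of all 5 complexes rose in printed cells: 64 of the 83 members tested rose and 0 fell, where 17.7% of all genes tested rose and 15.5% fell (limma on log2(FPKM + 1), Benjamini-Hochberg adjusted p under 0.05 over all genes). At least 2-fold rises were called for 41 members, against 4.97% of all genes. For 71 members both printed libraries lay above all 3 flask libraries, against 26.9% of all genes. The median log2 fold change was 0.99 for members and 0.01 for all genes. It ran from -0.15 for NDUFV3, an accessory subunit of complex I that was not called, to 1.46 for COX8A, a small subunit of complex IV. Without M14A plate library 1, 77 members rose (28.2% of all genes), with a median of 1.11.

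The size of the rise depended on the scale. With FPKM totals set equal outside mitochondrial genes, the median of all genes moved to -0.39 and that of members to 0.44, and 47 members rose (5.76% of all genes) while NDUFV3 fell by 0.65 (37.4% of all genes fell). On that scale 20 members of complex I rose, 5 of complex III, 10 of complex IV and 12 of complex V, and none of the 4 of complex II, whose median was -0.09. The share of reads from mitochondrial genes rose alongside, from 8.21 to 9.72% in M14A plate to 13.3 and 16.4% in M14A printed, and its part in the members' change was not tested. Across the 23 settings run, 37 of the 64 members were called higher in every setting, and SDHD, the membrane anchor of complex II, turned direction in 1 of them.

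**Figure D2:**
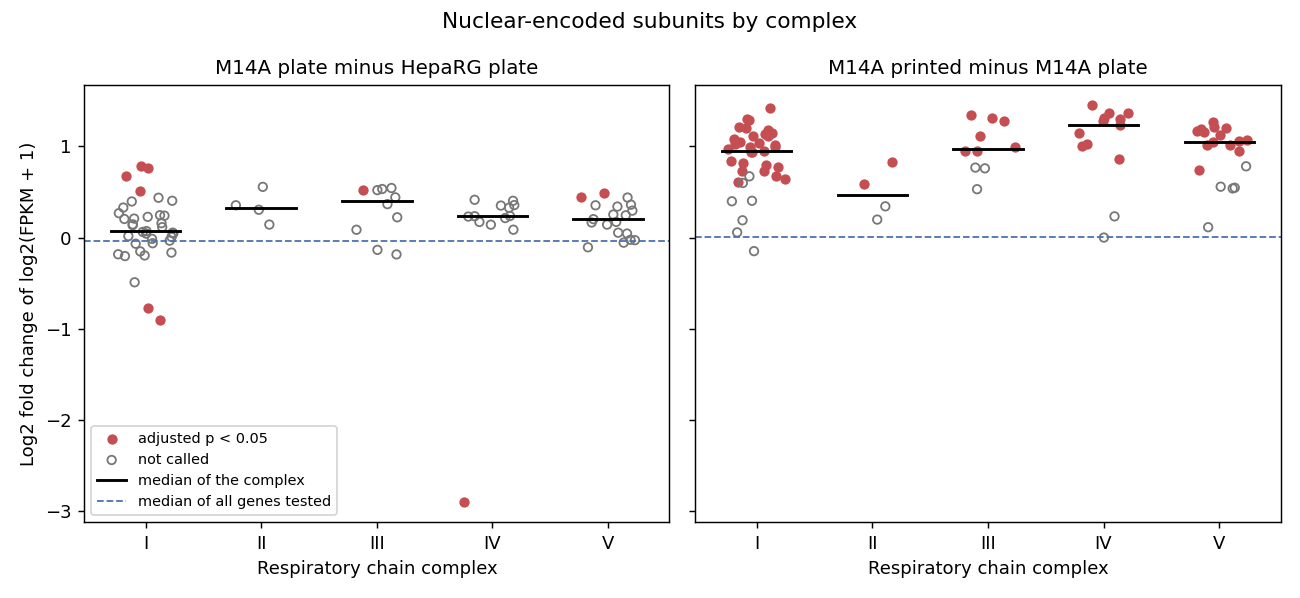
Log2 fold change on the log2(FPKM + 1) scale of each of the 83 members tested, by complex, for M14A plate minus HepaRG plate (left) and M14A printed minus M14A plate (right), with filled points for called members, black lines at the median of each complex and a dashed line at the median of all genes. On the right 81 of 83 members lie above 0, and on the left most lie near the dashed line and COX7B2, at -2.90, lies far below.

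The promoters of a few members that moved are shown here, because CpG-rich promoters are usual for genes that every cell uses, as most of the chain's subunits are. The RefSeq table (GRCh38.p14) held a promoter of 300 bases, 250 before and 50 after the start, for 71 of the 92 members. The median member promoter held 23 CpG dinucleotides and 61.0% GC, against 22 and 62.7% over 15843 protein-coding promoters. COX7A2, a ubiquitous complex IV subunit, was the lowest member, with 0 CpG in its window, a count shared by 1.91% of all promoters. Its log2 fold change in printed cells was 1.28 (SE 0.18, adjusted p = 0.0016). No relation between promoter content and expression was tested.

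The 250 bases before the RefSeq start are given for COX8A and COX5B, which rose by 1.46 and 1.36 on the log2 scale in printed cells, for UQCR11, which was called higher in the edited line, and for COX7B2, which had no reads in M14A. Capitals mark CpG dinucleotides. The windows are chr11:63974370-63974619 (plus strand), chr2:97645812-97646061 (plus strand), chr19:1605463-1605712 (minus strand) and chr4:46909246-46909495 (minus strand).
COX8A: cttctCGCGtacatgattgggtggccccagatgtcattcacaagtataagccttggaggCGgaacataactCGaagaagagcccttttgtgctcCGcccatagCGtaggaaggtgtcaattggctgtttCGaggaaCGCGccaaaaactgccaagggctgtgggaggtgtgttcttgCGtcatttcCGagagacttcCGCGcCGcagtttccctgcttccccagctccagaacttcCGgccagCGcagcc
COX5B: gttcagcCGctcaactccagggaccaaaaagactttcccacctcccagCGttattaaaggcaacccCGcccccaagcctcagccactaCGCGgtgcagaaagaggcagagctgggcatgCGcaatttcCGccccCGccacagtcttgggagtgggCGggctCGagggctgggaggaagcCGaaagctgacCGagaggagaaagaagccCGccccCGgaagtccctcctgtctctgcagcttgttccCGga
UQCR11: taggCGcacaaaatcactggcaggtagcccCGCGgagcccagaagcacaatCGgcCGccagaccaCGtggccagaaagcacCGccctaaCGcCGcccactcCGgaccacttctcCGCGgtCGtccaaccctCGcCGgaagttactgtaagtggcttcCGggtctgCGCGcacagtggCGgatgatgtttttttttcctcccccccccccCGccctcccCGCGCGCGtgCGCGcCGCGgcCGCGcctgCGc
COX7B2: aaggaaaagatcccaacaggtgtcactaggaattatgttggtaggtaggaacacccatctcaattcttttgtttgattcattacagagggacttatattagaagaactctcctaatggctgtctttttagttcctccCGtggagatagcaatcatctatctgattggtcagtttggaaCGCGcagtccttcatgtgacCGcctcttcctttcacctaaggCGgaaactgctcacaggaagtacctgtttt
Before the start, COX8A held 16 CpG, COX5B 15, UQCR11 31 and COX7B2 5, where the median of all promoters was 17. In the GENCODE 29 annotation 13 bases of the COX8A window, 22 of COX5B and 28 of UQCR11 already lie in an exon, and the COX7B2 window holds no exon. Promoter sequence was not measured in these libraries, and the counts are a description.

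Complex I, the NADH dehydrogenase, had 37 members tested, counted by symbol and with NDUFA4 and NDUFA4L2 included. Of these, 30 rose in printed cells, with a median log2 fold change of 0.95. NDUFB11, an X-linked accessory subunit of its membrane arm (chromosome X, 47142216 to 47145504, minus strand), read 51.6, 49.4 and 55.2 FPKM in HepaRG plate, 82.97, 50.5 and 51.6 in M14A plate and 180.4 and 145 in M14A printed. Both printed libraries exceeded all 6 flask libraries, a log2 fold change against M14A plate of 1.42 (SE 0.23, adjusted p = 0.0026). Of its exon bases 44.9% are shared with RBM10, so its count is uncertain. NDUFB7, another membrane arm subunit, read 171, 163 and 191 FPKM in HepaRG plate, 201, 137 and 129 in M14A plate and 417 and 341 in M14A printed. Again the printed pair lay above every flask library, with a log2 fold change of 1.30 (SE 0.21, adjusted p = 0.0026). NDUFA2, a small peripheral arm subunit, read 20.4, 19.97 and 20.7 FPKM in HepaRG plate, 44.3, 33.97 and 30.7 in M14A plate and 98.1 and 80.7 in M14A printed. Here the 3 groups followed each other without overlap, and the step from M14A plate to M14A printed was 1.29 (SE 0.18, adjusted p = 0.0015). NDUFB9, a LYR-motif subunit, read 29.02, 28.4 and 28.7 FPKM in HepaRG plate, 51.01, 34.4 and 31.97 in M14A plate and 97.4 and 83.6 in M14A printed, and the printed libraries were again the highest, by 1.21 (SE 0.20, adjusted p = 0.0031). The most abundant member of the complex was NDUFS5, with a mean of 350.1 FPKM over the 8 libraries. It read 336, 258 and 256 FPKM in M14A plate and 682 and 597 in M14A printed, a rise of 1.18 (SE 0.16, adjusted p = 0.0014).

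Within complex I, core subunits carry the flavin and the iron-sulfur clusters, and accessory subunits surround them. Of the 6 core subunits tested, 3 rose (NDUFV1, NDUFS3 and NDUFS8), with a median of 0.73. Of the 31 counted as accessory, NDUFA4 and NDUFA4L2 among them, 27 rose, with a median of 0.99. The difference between these groups was not tested. NDUFS1, the largest core subunit, read 12.8, 14.1 and 14.8 FPKM in M14A plate and 15.4 and 16.6 in M14A printed. Its printed libraries lay above the flask libraries by a small margin, and the difference of 0.19 (95% interval -0.10 to 0.48, adjusted p = 0.29) was not called. The accessory subunits that were not called were NDUFV3, NDUFA13, NDUFA9 and NDUFA8. NDUFV3 read 10.9, 7.34 and 7.02 FPKM in M14A plate and 7.75 and 6.97 in M14A printed, with a difference of -0.15 (95% interval -0.56 to 0.26, adjusted p = 0.56), with M14A plate library 1 above both printed libraries. NDUFA13, also known as GRIM19, read 0.693, 0.681 and 0.525 FPKM in M14A plate and 1.08 and 0.387 in M14A printed, with 0.06 (95% interval -0.36 to 0.47, adjusted p = 0.84), and its printed libraries lay on either side of the flask libraries. NDUFA13 shares 21.0% of its exon bases with other genes and was counted at a very low level in every library. Leaving out M14A plate library 1, 34 of the 37 complex I members rose.

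Complex II, succinate dehydrogenase, has only 4 subunits, all nuclear, and 2 of them rose, with a median of 0.46. SDHB, the iron-sulfur subunit and the most abundant of the 4, read 32.6, 33.1 and 36.1 FPKM in HepaRG plate, 59.2, 36.9 and 34.2 in M14A plate and 81.3 and 70.4 in M14A printed. The printed libraries were above all others, with a log2 fold change of 0.83 (SE 0.23, adjusted p = 0.023). SDHD, a membrane anchor that binds haem, read 25.97, 25.03 and 25.04 FPKM in HepaRG plate, 29.8, 24.8 and 29.99 in M14A plate and 43.4 and 41.7 in M14A printed, and the printed pair was again the highest, by 0.58 (SE 0.14, adjusted p = 0.013). With equal totals outside mitochondrial genes neither was called, and the differences were 0.26 for SDHB and 0.02 for SDHD. SDHA, the flavoprotein that oxidises succinate, read 44.8, 25.1 and 23.8 FPKM in M14A plate and 35.4 and 33.6 in M14A printed, so the groups overlapped, with 0.20 (95% interval -0.37 to 0.76, adjusted p = 0.58). SDHC, the other anchor, differed by 0.34 (95% interval -0.02 to 0.71, adjusted p = 0.13) and was not called. All 4 rose without M14A plate library 1.

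Complex III, the cytochrome bc1 complex, had all 10 members tested, and 7 rose, with a median of 0.97. UQCRB, a small subunit near the ubiquinone site, read 14.8, 13.6 and 13.2 FPKM in HepaRG plate, 10.3, 12.9 and 13.2 in M14A plate and 30.9 and 33.3 in M14A printed. UQCRH, the hinge protein that docks cytochrome c and the most abundant member (mean 208 FPKM, chromosome 1, 46303631 to 46316776, plus strand), read 143, 139 and 155 FPKM in HepaRG plate, 177, 149 and 138 in M14A plate and 395 and 369.9 in M14A printed. In both genes the printed pair was clear of every flask library, and the replicates were close, giving log2 fold changes of 1.34 (SE 0.15, adjusted p = 7.8e-04) and 1.31 (SE 0.15, adjusted p = 8.3e-04). UQCRHL, a retrocopy nearly identical to UQCRH, was the least abundant member at a mean of 5.21 FPKM, and reads of these copies are hard to assign. UQCRQ, a subunit next to cytochrome b, read 175, 124 and 121 FPKM in M14A plate and 379 and 296 in M14A printed, a rise of 1.27 (SE 0.19, adjusted p = 0.0022). UQCR10, a small subunit of the dimer, read 132, 84.2 and 85.2 FPKM in M14A plate and 237 and 193 in M14A printed, a rise of 1.12 (SE 0.21, adjusted p = 0.0054). In 3 members the difference was not called. The Rieske iron-sulfur protein UQCRFS1 differed by 0.53 (95% interval -0.05 to 1.11, adjusted p = 0.15), cytochrome c1 (CYC1) by 0.76 (95% interval 0.14 to 1.38, adjusted p = 0.061), and the core protein UQCRC1 by 0.77 (95% interval 0.18 to 1.36, adjusted p = 0.0502). All 10 members rose without M14A plate library 1.

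Complex IV, cytochrome c oxidase, had the highest median of the 5 complexes, 1.24, and 11 of its 13 tested members rose. Its nuclear subunits surround the mitochondrially encoded core. COX8A, a small ubiquitous subunit and the most abundant here (chromosome 11, 63974607 to 63976543, plus strand, mean 367 FPKM), read 217, 229 and 234 FPKM in HepaRG plate, 353, 215 and 239 in M14A plate and 765 and 681 in M14A printed. No flask library reached the printed pair, and the log2 fold change was 1.46 (SE 0.20, adjusted p = 0.0016). COX6A1, the non-muscle form of a regulatory subunit, read 45.4, 43.05 and 44.8 FPKM in HepaRG plate, 78.9, 48.8 and 54.6 in M14A plate and 172 and 139.6 in M14A printed, with the printed pair highest and a rise of 1.37 (SE 0.21, adjusted p = 0.0022). COX5B, a zinc-binding matrix subunit (chromosome 2, 97646040 to 97648383, plus strand), read 125, 116 and 134 FPKM in HepaRG plate, 189, 138 and 122 in M14A plate and 416 and 345 in M14A printed, a rise of 1.36 (SE 0.20, adjusted p = 0.0019). COX6B1, which faces the intermembrane space, read 171, 164 and 189.6 FPKM in HepaRG plate, 316, 197 and 198 in M14A plate and 623 and 525 in M14A printed, a rise of 1.31 (SE 0.22, adjusted p = 0.0032). In each of these genes M14A plate library 1 was the highest flask library and still lay below both printed libraries. The 2 members not called were tissue isoforms at low level or at 0 reads in M14A, COX6A2 and COX7B2.

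Complex V, the ATP synthase, had 19 members tested, and 14 rose, with a median of 1.05. In the F1 head, which makes ATP, and the central stalk, 2 of 5 members rose. ATP5F1B, the catalytic beta subunit and the most abundant of all members (mean 744 FPKM), read 555, 548 and 565 FPKM in HepaRG plate, 994, 609 and 591 in M14A plate and 1106 and 988 in M14A printed. M14A plate library 1 lay within the printed range, so the groups overlapped, with 0.56 (95% interval 0.06 to 1.05, adjusted p = 0.081). ATP5F1A, the alpha subunit, differed by 0.55 (95% interval 0.05 to 1.05, adjusted p = 0.088). ATP5F1E, the small epsilon subunit of the central stalk, read 30.3, 27.5 and 25.4 FPKM in M14A plate and 68.9 and 61.6 in M14A printed, a rise of 1.21 (SE 0.14, adjusted p = 8.4e-04). The peripheral stalk, which holds the head still, rose in all 4 members (median 1.09). Its subunit d, ATP5PD, read 26.2, 21.7 and 21.4 FPKM in M14A plate and 59.6 and 48.96 in M14A printed, and both printed libraries were higher, by 1.20 (SE 0.16, adjusted p = 0.0013).

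The 5 small membrane subunits of the ATP synthase that help it form dimers all rose (median 1.16). ATP5ME, subunit e, read 25.8, 22.6 and 13.8 FPKM in M14A plate and 58.03 and 42.6 in M14A printed, a rise of 1.27 (SE 0.26, adjusted p = 0.0071). For this gene 61.6% of exon bases are shared with MYL5, so its count is uncertain. ATP5MD, also called DAPIT, read 189.8, 149 and 158 FPKM in M14A plate and 402 and 356 in M14A printed, a rise of 1.19 (SE 0.15, adjusted p = 0.001). The inhibitor of ATP hydrolysis, ATP5IF1, read 27.3, 23.5 and 20.8 FPKM in M14A plate and 50.2 and 47.6 in M14A printed, also apart, with 1.01 (SE 0.15, adjusted p = 0.0018). ATP5S, coupling factor B and the least abundant tested member of the complex, differed by 0.11 (95% interval -0.20 to 0.42, adjusted p = 0.56). Of the 19 members 18 rose without M14A plate library 1, ATP5S being the exception.

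Since members of every complex rose, the makeup of the chain was also read, with complexes set by symbol and NDUFA4 in complex I. It was taken as the share of each complex in the summed member FPKM, which does not depend on library scaling. Complex IV took 23.3 to 23.6% of it in the HepaRG plate libraries, 23.5 to 24.2% in the M14A plate libraries, and 28.8 and 28.5% after printing. Complex V took 28.8 to 29.6%, 30.3 to 30.6%, and 25.8 and 26.0%. Printed cells were thus apart from all flask libraries in both shares, upward in complex IV and downward in complex V. The lower share is not a fall of complex V, of which 14 of 19 members rose (17.7% of all genes). Its sums were 2006, 1349 and 1321 FPKM in M14A plate and 2861 and 2491 in M14A printed. Of these, the 5 members of the F1 head and central stalk gave 1349, 835 and 810, and 1601 and 1388. The share of complex V thus rests largely on these 5. Complex II took 2.04 to 2.11%, 2.17 to 2.24%, and 1.57 and 1.66%. The core subunits of complexes I, II and III together took 7.86 to 8.10%, 7.74 to 9.05%, and 6.45 and 6.35%. M14A plate library 1 did not stand apart in the share of complex IV or V, unlike in its summed level. Complex I took 29.9 to 30.4% in the HepaRG libraries and 27.0 to 28.4% in all 5 M14A libraries, and complex III 14.7 to 15.2% and 15.4 to 15.9%, so these shares set the parent apart from the edited line and not printed from flask-grown cells. With 3 against 2 libraries the smallest two-sided p of an exact permutation test is 0.2, so these shares are given as a description.

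Members are short genes, and short genes were higher in printed cells in general. The median coding transcript was 703 bases for the members tested and 1793 for protein-coding genes tested. Spearman's rho between the printed log2 fold change and this length was -0.39 over 83 members and -0.43 over 11293 protein-coding genes, as a description across genes that are not independent. Under 1 kb, 54 of 64 members rose (median 1.03), against 33.5% of 2786 other genes (median 0.28). From 1 to 2 kb, 7 of 11 rose (0.77), against 23.4% of 3424 (0.17), and over 2 kb, 3 of 8 (0.46), against 4.48% of 5000 (-0.20). In every class the members' median lay above that of other genes of like length, and in both sets it was lowest over 2 kb. After removal of each library's trend with the deposited gene length and GC content 67 members rose (23.9% of all genes), with a median of 0.77. The deposited gene length is another measure than coding transcript length, with medians of 2462 bases for members and 5039.5 for protein-coding genes tested. Whether a trend with coding transcript length remained was not tested.

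**Figure D3:**
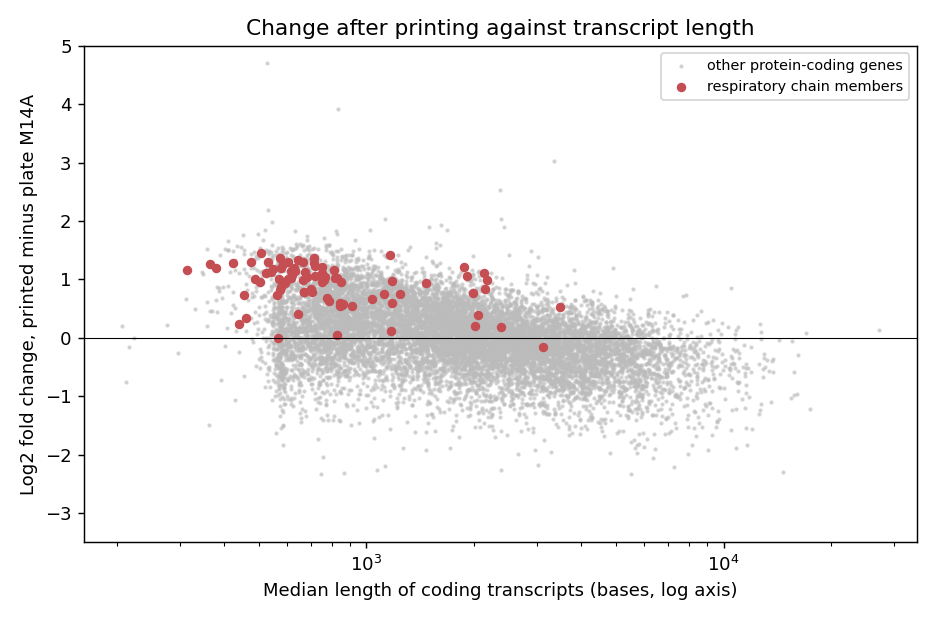
Log2 fold change, M14A printed minus M14A plate (vertical axis, log2(FPKM + 1) scale), against median coding transcript length (horizontal log axis, bases), with other protein-coding genes tested in grey and the 83 members in red. Values fall with length in both sets, and members under 1 kb have a median of 1.03 where other genes of that length have 0.28.

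Flask-grown M14A was set against its wild-type parent to ask what the edited line expresses. Few subunits passed the test: 7 of 83 members rose and 3 fell, where 16.1% of all genes rose and 14.7% fell. All libraries of M14A plate were above all of HepaRG plate for 29 members (25.7% of all genes) and below for 6 (27.4% of all genes). The median log2 fold change was 0.20 for members and -0.04 for all genes, and 0.04 for members without M14A plate library 1. Without it 12 members rose (20.3% of all genes) and 8 fell (22.4%). Leaving out HepaRG plate library 1, 2 or 3 left 2 rises, NDUFA2 and NDUFA4L2 (10.9, 11.2 and 11.3% of all genes), and removing the length and GC trend gave 9 rises (20.8%) and 9 falls (23.7%). The 3 falls and these 2 rises were called in every setting that tested them. Of these, COX7B2 entered the test through the HepaRG libraries alone and NDUFA4L2 through M14A libraries alone, so each had to differ, and their values are given as a description.

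Among the 3 falls the largest was COX7B2, an isoform of the complex IV subunit COX7B that is known mainly from testis (chromosome 4, 46734827 to 46909235, minus strand). It read 7.63, 5.55 and 6.39 FPKM in HepaRG plate, from 116, 103 and 108 reads, and had 0 reads in all 5 M14A libraries. Set against 3 reads over the M14A plate group, the level was at least 96.9-fold lower. It supplied 22.8, 17.1 and 19.2% of the summed COX7B and COX7B2 FPKM in HepaRG plate. COX7B itself read 25.9, 26.8 and 26.9 FPKM in HepaRG plate and 34.6, 30.01 and 25.98 in M14A plate, with overlapping groups and no call. Germ cell markers were at or near 0 in all libraries, with TNP1 and PRM1 at 0 reads throughout and the list's sum at most 0.395 FPKM.

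Complex I held the other falls. NDUFA6, a LYR-motif subunit of the peripheral arm (chromosome 22, 42085525 to 42090955, minus strand), read 39.6, 37.9 and 38.6 FPKM in HepaRG plate and 25.9, 18.05 and 17.9 in M14A plate. The groups were apart, with a log2 fold change of -0.90 (SE 0.16, adjusted p = 0.0034). NDUFC2, a membrane arm subunit (chromosome 11, 78068304 to 78080219, minus strand), read 7.73, 6.89 and 7.22 FPKM in HepaRG plate and 3.89, 4.04 and 3.56 in M14A plate, a fall with tight replicates, -0.78 (SE 0.11, adjusted p = 0.0011). In M14A printed, NDUFA6 read 43.95 and 37.8 FPKM and NDUFC2 7.64 and 6.46, and both rose against M14A plate, by 0.97 and 0.73. These FPKM values are near those of HepaRG plate, but the shares are not alike. The FPKM totals were 254141 to 266419 in HepaRG plate and 514152 and 499995 in M14A printed. With equal totals outside mitochondrial genes the printed rise of NDUFA6 was still called and that of NDUFC2 was not. The falls and these rises share the same M14A plate libraries. NDUFC2 shares 18.1% of its exon bases, in part with its read-through gene, which had no reads.

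Rises in M14A were at most 0.79 on the log2(FPKM + 1) scale, which understates that of NDUFA4L2 (0.61 to 3.2 over the settings). NDUFA2 (chromosome 5, 140638740 to 140647785, minus strand), given above, differed by 0.79 (SE 0.16, adjusted p = 0.0061), and no HepaRG library reached any M14A library. NDUFA4L2, a paralogue of NDUFA4 that is induced by hypoxia, rested on 5, 3 and 6 reads in HepaRG plate and 57, 38 and 33 in M14A plate. It read 0.0946, 0.0465 and 0.102 FPKM in HepaRG plate, 1.27, 0.693 and 0.598 in M14A plate and 1.73 and 1.85 in M14A printed, so the groups were apart at a very low level. NDUFB2, a membrane arm subunit that shares 35.9% of its exon bases with other genes, rose by 0.51 (SE 0.16, adjusted p = 0.042). In complex III, UQCR11 (chromosome 19, 1597172 to 1605490, minus strand), the smallest subunit, read 11.6, 10.4 and 10.5 FPKM in HepaRG plate and 19.00, 14.4 and 14.95 in M14A plate, a rise of 0.52 (SE 0.14, adjusted p = 0.02). In complex V, ATP5MD read 118, 117 and 116 FPKM in HepaRG plate and 189.8, 149 and 158 in M14A plate, a rise of 0.49 (SE 0.13, adjusted p = 0.021), and ATP5MF, subunit f, read 29.4, 28.9 and 29.95 FPKM in HepaRG plate and 48.1, 35.7 and 38.02 in M14A plate, a rise of 0.44 (SE 0.15, adjusted p = 0.049). The call of ATP5MF held in 9 of the 23 settings and was lost with the replicate block. In each of these genes every M14A plate library exceeded every HepaRG library. Complex II had no call, with all 4 differences positive and 2 members called once M14A plate library 1 was left out.

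**Figure D4:**
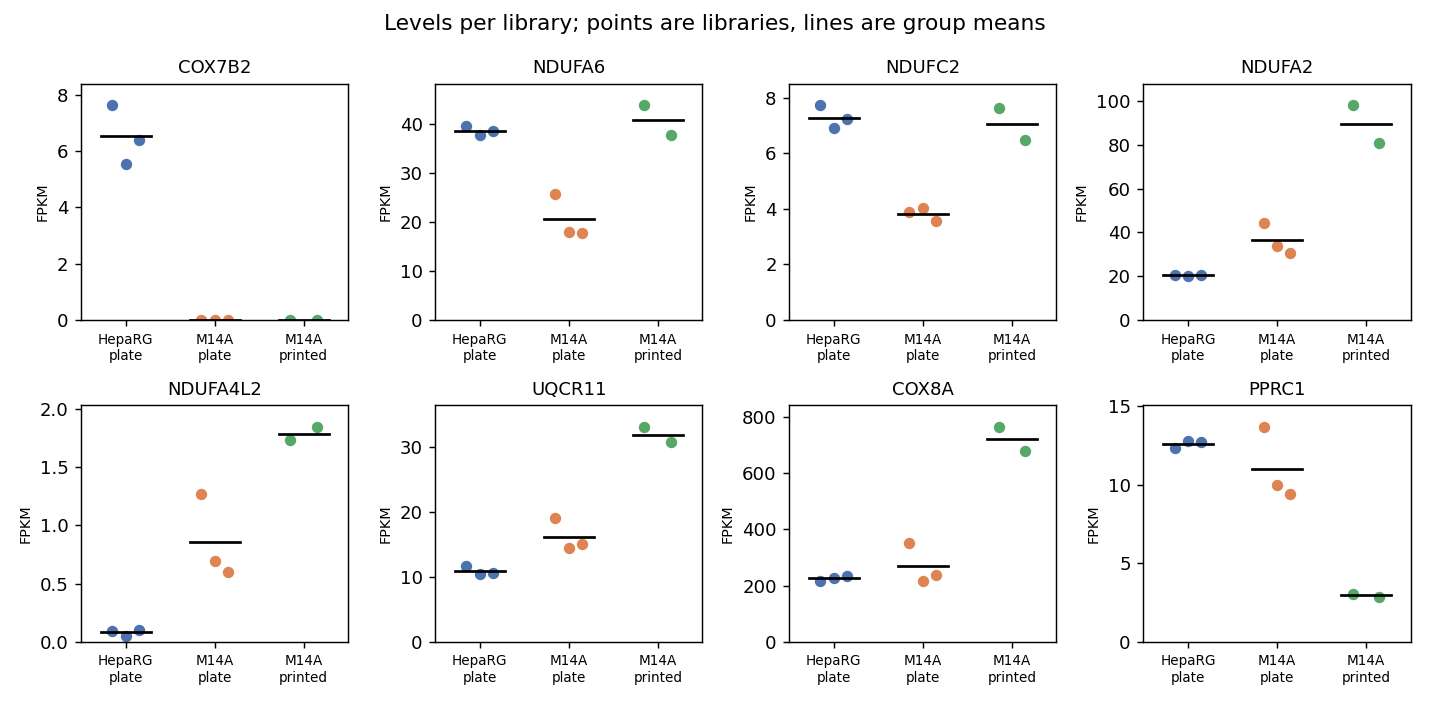
FPKM in each library (points, linear axes from 0, with group means as lines) for 7 members and for PPRC1, a coactivator described further on, in HepaRG plate, M14A plate and M14A printed. COX7B2 is at 0 in all M14A libraries, NDUFA6 and NDUFC2 are lowest in M14A plate, and NDUFA2, NDUFA4L2 and UQCR11 are lowest in HepaRG plate and highest after printing.

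**Figure D5:**
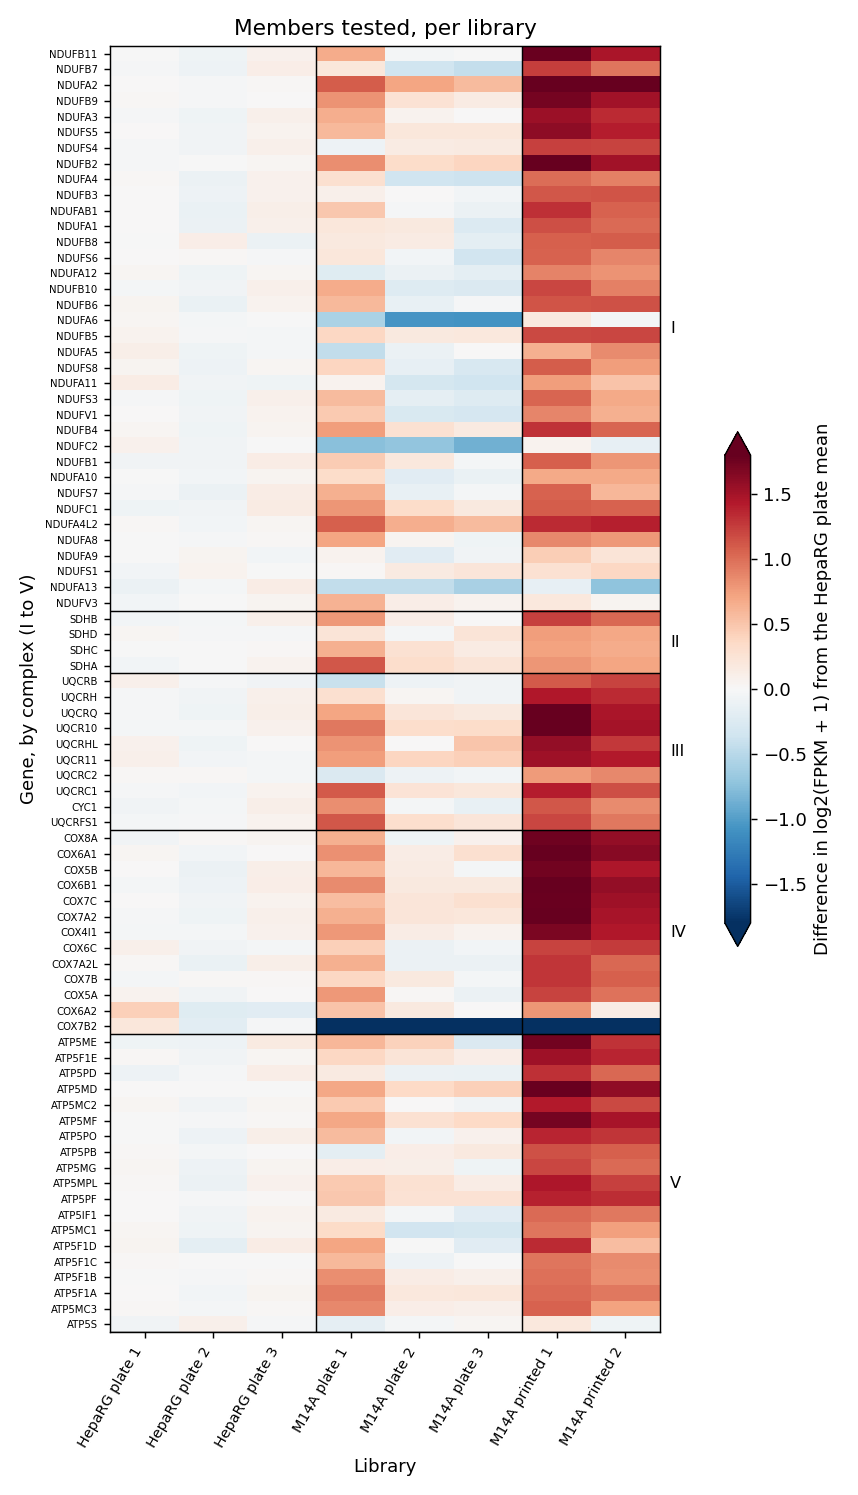
Difference of log2(FPKM + 1) from the HepaRG plate mean (colour, saturated beyond the ends of the scale) for tested members in rows, by complex and then by printed log2 fold change, and each of the 8 libraries in columns. The 2 printed columns are raised through most rows, M14A plate library 1 lies above the other M14A plate columns in most rows, and COX7B2 is low in all 5 M14A libraries.

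Several subunits have isoforms, and their balance was read as each gene's share of its family's FPKM. The 3 genes for the c ring of the ATP synthase encode the same mature protein with different import signals. ATP5MC1 gave 39.6 to 40.3% of their sum in the HepaRG libraries, 33.0 to 34.3% in flask-grown M14A, and 35.4 and 36.5% after printing. ATP5MC2 gave 25.2 to 25.4%, 23.5 to 26.9%, and 31.4 and 31.9%, and ATP5MC3 gave 34.3 to 35.3%, 39.7 to 42.5%, and 33.2 and 31.6%. The balance thus lay toward ATP5MC3 in flask-grown M14A and toward ATP5MC2 in printed cells. In printed cells ATP5MC2 rose by 1.17 (SE 0.18, adjusted p = 0.0025) and ATP5MC1 by 0.95 (SE 0.22, adjusted p = 0.012), and ATP5MC3 differed by 0.54 (95% interval -0.01 to 1.09, adjusted p = 0.12). NDUFA4L2 was 0.0741 to 0.144% of the NDUFA4 pair in HepaRG plate and 1.15 to 1.52% in all M14A libraries. The heart and muscle isoforms were near absent: COX6A2 (155 reads) gave 1.29 to 5.13% of the COX6A pair, and COX7A1 at most 0.845% of its family. Striated muscle markers summed to at most 3.82 FPKM. COX7A2L, which links complexes III and IV into supercomplexes, gave 15.4 to 16.2% of the COX7A family in HepaRG plate, 16.2, 12.99 and 13.1% in M14A plate, and 12.2 and 12.6% in M14A printed, so M14A plate libraries 2 and 3 lay near the printed values.

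The 13 subunits encoded in mitochondrial DNA complete the chain. Of these, 7 rose and 1 fell in printed cells (median 0.61), where 17.7% of all genes rose and 15.5% fell. The direction of this list depended on the scale. With equal totals outside mitochondrial genes 3 rose and 3 fell (median 0.02), where 5.76% of all genes rose and 37.4% fell (median -0.39). Under quantile normalisation 0 rose and 8 fell (median -0.46), against 16.8 and 15.8% of all genes (median 0.03). MT-CO2, a core subunit of complex IV that takes electrons from cytochrome c, rose by 1.55 (SE 0.14, adjusted p = 5.3e-04), and MT-CO3, another core subunit, by 1.18 (SE 0.13, adjusted p = 7.9e-04). MT-ND5, a proton-pumping subunit of complex I, fell, with a log2 fold change of -0.85 (SE 0.18, adjusted p = 0.0085). In M14A plate against HepaRG plate 4 rose and none fell (16.1 and 14.7% of all genes), MT-ATP6 by 0.62 (SE 0.17, adjusted p = 0.026) and MT-ND6 by 0.54 (SE 0.12, adjusted p = 0.01) among them. The median mitochondrially encoded subunit was 98.1, 98.1 and 108 times the median nuclear member in the 3 HepaRG plate libraries. It was 110.2, 104 and 108 times in M14A plate, and 70.9 and 108 times after printing. This ratio did not separate the groups, and the printed libraries differed from each other.

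Genes that build or feed the chain were counted from fixed lists. Of 53 table entries for assembly factors, 51 were tested, and 28 rose and 1 fell in printed cells (median 0.46). Of all genes 17.7% rose and 15.5% fell. SURF1, which helps insert haem into complex IV, read 40.2, 28.6 and 29.3 FPKM in M14A plate and 81.04 and 66.6 in M14A printed, a rise of 1.16 (SE 0.18, adjusted p = 0.0023), and UQCC2, an assembly factor of complex III, rose by 1.06 (SE 0.14, adjusted p = 0.0013). COA7, a complex IV factor, fell, with -0.75 (SE 0.11, adjusted p = 0.0022). In M14A plate 10 rose and 1 fell, where 16.1% of all genes rose and 14.7% fell. COX10, which makes haem a precursors, rose by 1.03 (SE 0.18, adjusted p = 0.0025). LYRM7, which matures complex III, fell, with -0.96 (SE 0.25, adjusted p = 0.02). With equal totals outside mitochondrial genes the printed counts were 6 rises and 8 falls (5.76 and 37.4% of all genes). The list's median was then 0.02, against -0.39 for all genes. Its counts thus depended on the scale, while its median stayed above that of all genes.

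Of 14 genes for cytochrome c and ubiquinone synthesis, 3 rose and 0 fell in printed cells (median 0.33), against 17.7 and 15.5% of all genes. With equal totals outside mitochondrial genes 0 rose and 3 fell (median -0.16), where 5.76% of all genes rose and 37.4% fell (median -0.39). CYCS, cytochrome c itself, read 78.2, 73.9 and 71.8 FPKM in HepaRG plate, 51.1, 58.1 and 62.7 in M14A plate and 101 and 108 in M14A printed. All M14A plate libraries lay below HepaRG plate, and both printed libraries were the highest, with -0.38 (SE 0.12, adjusted p = 0.048) for the edited line and 0.86 (SE 0.14, adjusted p = 0.0028) for printing. With equal totals its printed difference was 0.28 and was not called. COQ5, a methyltransferase of ubiquinone synthesis, rose by 0.48 (SE 0.14, adjusted p = 0.031). In the edited line PDSS2, which makes the ubiquinone side chain, rose by 0.38 (SE 0.11, adjusted p = 0.034). Of 18 enzymes of pyruvate oxidation and the citric acid cycle, 5 rose and 0 fell in printed cells (median 0.48), against 17.7 and 15.5% of all genes. With equal totals 0 rose and 4 fell (median -0.08), against 5.76 and 37.4% of all genes (median -0.39). Among the rises on the deposited scale were MDH2, malate dehydrogenase, at 0.89 (SE 0.22, adjusted p = 0.017) and IDH3G, a subunit of isocitrate dehydrogenase, at 0.80 (SE 0.27, adjusted p = 0.049). In the edited line 2 rose and 2 fell (16.1 and 14.7% of all genes), with DLST of the oxoglutarate dehydrogenase complex higher by 0.73 (SE 0.20, adjusted p = 0.023).

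Of 15 regulators of mitochondrial biogenesis tested, 0 rose and 3 fell in printed cells (median -0.19), where 17.7% of all genes rose and 15.5% fell. With 15 genes neither count is read as a result about the list. With equal totals outside mitochondrial genes 9 fell, where 37.4% of all genes did. PPRC1, a coactivator of the PGC-1 family, read 12.3, 12.8 and 12.7 FPKM in HepaRG plate, 13.7, 10.01 and 9.39 in M14A plate and 3.03 and 2.87 in M14A printed. Both printed libraries were far below all 6 flask libraries, with -1.59 (SE 0.16, adjusted p = 6.4e-04). NRF1, a transcription factor for respiratory genes, read 3.81, 2.57 and 2.402 FPKM in M14A plate and 1.703 and 1.69 in M14A printed, a fall of smaller size, -0.53 (SE 0.17, adjusted p = 0.043), and TWNK, the mitochondrial DNA helicase, fell, with -0.48 (SE 0.16, adjusted p = 0.047). Among the same 15 in M14A plate, 1 rose and 2 fell, where 16.1% of all genes rose and 14.7% fell. The falls were PPARGC1A, the coactivator PGC-1alpha, with -0.88 (SE 0.21, adjusted p = 0.014), and MYC, with -0.59 (SE 0.18, adjusted p = 0.033). Of 6 hypoxia-responsive mitochondrial genes tested, 5 rose in printed cells (17.7% of all genes) and 2 with equal totals (5.76%). In M14A plate 4 rose (16.1% of all genes) and 2 with equal totals (16.0%). NDUFA4L2, which entered the test through M14A libraries alone, is counted among the M14A plate rises both times. HIGD1A, a survival factor that binds complex IV, read 43.6, 39.2 and 39.9 FPKM in HepaRG plate, 48.6, 56.4 and 71.4 in M14A plate and 144 and 155 in M14A printed, a rise of 1.35 (SE 0.17, adjusted p = 0.0012) in printed cells. BNIP3, a mitophagy receptor, read 14.2, 13.1 and 14.4 FPKM in HepaRG plate, 39.2, 27.9 and 29.2 in M14A plate and 75.9 and 76.6 in M14A printed, a step at each comparison, with 1.14 (SE 0.15, adjusted p = 6.0e-04) and 1.24 (SE 0.17, adjusted p = 0.0014). Of 7 carriers and porins tested, 3 rose in printed cells (17.7% of all genes), and 1 with equal totals (5.76%). The rises included the ADP/ATP carrier SLC25A6 at 1.14 (SE 0.25, adjusted p = 0.0096) and the porin VDAC3 at 0.77 (SE 0.15, adjusted p = 0.0057). None of the carriers and porins was called in M14A plate, where 16.1% of all genes rose and 14.7% fell. Both comparisons use the same M14A plate libraries.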

How the data were processed

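RNA of 8 libraries was sequenced, with 1 µg of RNA as input to the NEBNext Ultra kit, per the labels' protocols. The submitters' processing notes name HISAT2 2.0.5 and featureCounts 1.5.0-p3. Options, strand setting and build: not given in the sources used here. All 58735 genes have the coordinates of GENCODE 29, a GRCh38 annotation. The deposited values are FPKM, which the authors computed with gene lengths that are in the table. FPKM times gene length gave whole reads for 100.0% of values within a tolerance of 0.01, and 0 columns of per-sample values had no sample.

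Sample titles gave the groups. The 14349 genes that reached 1 FPKM in 2 or more libraries entered limma (version 3.58.1, R version 4.3.3) on the log2(FPKM + 1) scale, in 1 fit of 3 group means over all libraries, with eBayes and a mean trend. Folds on this scale understate changes of low genes. Calls are at a two-sided Benjamini-Hochberg adjusted p under 0.05 over all genes. Members, gene lists and tests were chosen with earlier results of these data known. Named genes are, per complex and comparison, the 4 called members (or fewer) that differed most, isoform families, the highest and lowest member of each complex, and up to 2 called genes per list in each comparison. NDUFB2, COA7, MT-ND5, MT-ND6, NDUFV3, NDUFA13 and other members that were not called were named after their values were seen. Values of 2 genes that the rule names or that were called are not reported here, and the counts include them. Replicates differed beyond sampling noise, with a chi-square per degree of freedom of 2.69 to 69.3. On simulated reads with the real means, 52.7% of 2-fold and 91.5% of 4-fold changes were called for M14A plate minus HepaRG plate (13498 genes tested), and 48.0% and 86.6% for M14A printed minus M14A plate (13479 genes tested). The simulation changed far fewer genes than were called here and had no library that stood apart, so these rates may not hold for the data. Alternatives covered the pseudocount, the filter, scaling, weights on recovered reads, genes and libraries in the fit, the length and GC trend, the replicate block and each library left out. The 2 settings that combine a changed scale or trend with M14A plate library 1 left out were added after the data were seen.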

Additional observations from a re-analysis of the deposited data

How the results depend on the processing

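Each flask library was left out in turn. The number of members that rose in M14A plate against HepaRG plate ran from 2 to 12, and the number that fell from 3 to 8. In printed cells 54 to 77 rose. With a printed library left out fewer rose than in any of these, but 1 library then stands for its group and no count is given. The low of 2 came with any HepaRG plate library left out (10.9 to 11.3% of all genes), and that of 54 without M14A plate library 2 (12.8%). The highs of 12, 8 and 77 came with M14A plate library 1 left out (20.3, 22.4 and 28.2%). For the edited line, quantile normalisation gave 12 rises and 8 falls (18.3 and 18.1% of all genes), equal totals without mitochondrial genes 13 and 5 (16.0 and 19.3%), and the length and GC trend removed 9 and 9 (20.8 and 23.7%). In printed cells 1 member fell under quantile normalisation (15.8% of all genes), and 1 with equal totals (37.4%). With M14A plate library 1 left out as well, removing the trend gave 13 rises and 16 falls in the edited line (23.4 and 28.5%), and equal totals gave 17 and 11 (20.0 and 24.5%), with 3 falls in printed cells (59.0%). The causes were not tested. Equal totals moved the median of all genes to -0.14 in the edited line and -0.39 in printed cells.

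Replicate numbers showed no pairing of HepaRG plate with M14A plate, where same-numbered libraries deviated from their group means with correlations of -0.07, 0.08 and -0.16. M14A plate and M14A printed share only 2 numbers (0.49 and 0.36). The 2 printed libraries deviate from their mean by equal and opposite amounts, so pairing in that comparison cannot be judged. With the replicate block, 6 members rose and 3 fell in the edited line (15.7 and 15.1% of all genes), and 63 rose in printed cells (15.9%). The replicate block with the length and GC trend removed gave 12 rises and 8 falls (20.0 and 22.6%), and 1 fall in printed cells (19.5%).

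Among the genes named and called, 60 of 654 alternative values in the edited line and 111 of 986 in printed cells kept their direction but missed the threshold. Direction turned in printed cells for COQ5 with equal totals (-0.0503, and -0.11 without M14A plate library 1), the stellate marker DCN (-0.11) and SDHD (-0.0465) with equal totals without that library, and MT-CO3 under quantile normalisation (0.00, where it ties with other genes at the top rank). Depth was enough for most members, while NDUFA4L2, COX6A2 and the 9 untested members rest on few reads.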
